A study of Mus musculus with 6 samples.

Results

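The genes described here are the 36 that carry glucose to lactate or into the mitochondrial citric acid cycle in mouse cells: glucose and lactate transporters, the enzymes of glycolysis with their isoforms, the mitochondrial pyruvate carrier, and pyruvate dehydrogenase with the kinases and the phosphatase that set its activity. They were chosen by gene symbol, with no measured value in the rule, but with earlier results of these data known. All 36 were among the 55367 rows of the expression table, and 35 averaged 10 reads or more and could be tested. LLC, a wild-type mouse cancer line from a Lewis lung carcinoma, was cultured for 46 h in serum-containing medium with the solvent DMSO (3 libraries) or with 5 µM STM2457 (3 libraries). STM2457 blocks METTL3, the methyltransferase that places N6-methyladenosine (m6A) on messenger RNA. Messenger RNA libraries were made from the total RNA of each sample. The labels name no separate cultures behind the libraries, so the p-values below speak only for the spread among these 6 libraries, which may be technical, and all statements are about 1 cell line.

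In glycolysis, glucose enters through facilitative transporters, is trapped by hexokinase, is committed by phosphofructokinase, and is split and oxidised to pyruvate. Cancer cells often turn much of this pyruvate into lactate, which leaves through monocarboxylate transporters, even when oxygen is present. The alternative fate is import into mitochondria and oxidation to acetyl-CoA by pyruvate dehydrogenase, which pyruvate dehydrogenase kinases switch off. Many of these genes are textbook targets of the hypoxia-inducible factors and of MYC.

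Reads in genes ranged from 17671714 to 17917210 per library. A count of 0 allows up to 3 reads, or 0.167 to 0.170 RPM (relative to all reads in genes), counting error only. All 9 epithelial and lung markers examined had a mean under 10 reads, and Epcam, Cdh1 and Nkx2-1 were at 0 in every library, so the defining markers of lung epithelium were absent or near 0. Their summed level was 0.679 to 1.02 RPM in DMSO and 0.279 to 0.615 after STM2457. All 4 mesenchymal markers were expressed, at a summed 5340 to 5378 RPM in DMSO and 4240 to 4348 after STM2457, where Vim and Fn1 fell (folds 0.872 and 0.711) and Cdh2 rose (1.32). Of 15 markers of blood, vessel, fibroblast, liver and heart cells, 5 reached a mean of 10 reads and 4 were at 0 in all libraries. Their sum was 18.5 to 20.3 RPM in DMSO and 22.8 to 24.6 after STM2457, with the pericyte and fibroblast marker Pdgfrb higher (fold 2.54, limma adjusted p = 2.0e-09) and the fibroblast marker Lum lower (fold 0.289, limma adjusted p = 4.2e-04). Their part in the results below was not tested.

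Values below are reads recovered from the deposited log2 table and divided by the library's size factor ("normalised reads"). A fold is STM2457 over DMSO on those reads, with its 95% interval from limma-voom. A gene is called higher or lower by limma on the deposited log2 values, at a Benjamini-Hochberg adjusted p under 0.05 over all 12618 tested genes.

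After STM2457, most genes from glucose uptake to pyruvate were lower, with folds from 0.671 to 0.917, while the 4 pyruvate dehydrogenase subunit genes had folds from 0.932 to 1.07 and 3 of 4 kinase genes of that enzyme were lower. Of the 35 tested genes, 20 fell (57.1%, where 25.7% of all tested genes fell) and 2 rose (5.71%, where 30.7% of all tested genes rose), and 13 did not pass. In either direction 22 passed (62.9%), beside 56.3% of all tested genes, so the share that changed at all was near the background. From uptake to pyruvate, 15 of 20 tested genes fell and 0 rose, and 3 of 5 kinase and phosphatase genes fell. The median fold of the 35 genes was 0.896, beside 1.01 over all tested genes. Counted apart from the calls, the 3 libraries of the groups did not overlap for 20 genes lower and 1 higher after STM2457. The shares over all tested genes were 28.4% and 33.4%. These 20 are not the same as the 20 called lower. They include Pfkfb3 and Slc16a3, which did not pass, and leave out Hk1 and Pfkl, whose groups overlapped. DMSO replicate 1 and STM2457 replicates 1 and 3 each had 416 reads of Pfkfb3 and 23 of Slc16a3. Only the scaling of the libraries therefore set the groups of these genes apart. A call with a fold under 0.8 was made for 8 of the 35, and for 14.3% of all tested genes. In bulk RNA, fewer cells with a transcript and less of it per cell cannot be told apart. Centring the libraries on their upper quartile instead gave 25 lower and 0 higher genes among the 35, and moved all tested genes from 3240 lower and 3868 higher to 4814 lower and 2819 higher.

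**Figure D1:**
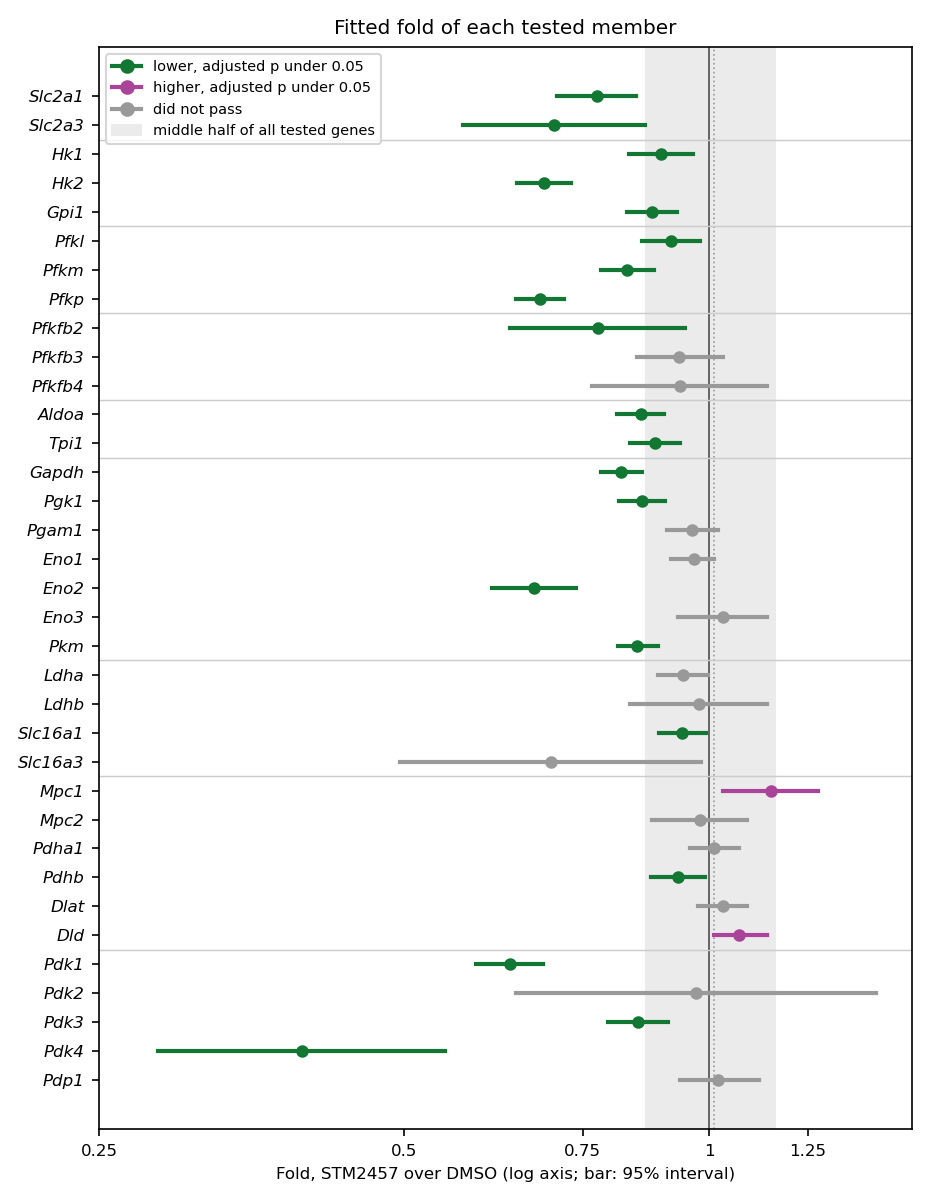
Fold of each tested gene (STM2457 over DMSO, log axis, bar: 95% interval), in pathway order and coloured by the limma call, with the range from the 25th to the 75th percentile of all tested genes (0.866 to 1.16) shaded. Slc2a1, Slc2a3, Hk2, Pfkp, Gapdh, Eno2, Pdk1 and Pdk4 lie left of the shaded range with their whole intervals, and only Mpc1 and Dld are called higher.

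DMSO replicate 2 stood apart from the other DMSO libraries in much of this pathway. It was the lowest DMSO library for 20 of the 35 tested genes and for 14 of the 15 genes that encode the main enzymes of glycolysis, where the median distance from the mean of the other two was -0.08 on the deposited log2 scale. Over all tested genes it was lowest for 4693 of 12618. Without it the log2 differences of Eno3, Pfkfb4 and Ldhb, none of which passed, changed sign to -0.01, 0.0038 and 0.01.

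**Figure D2:**
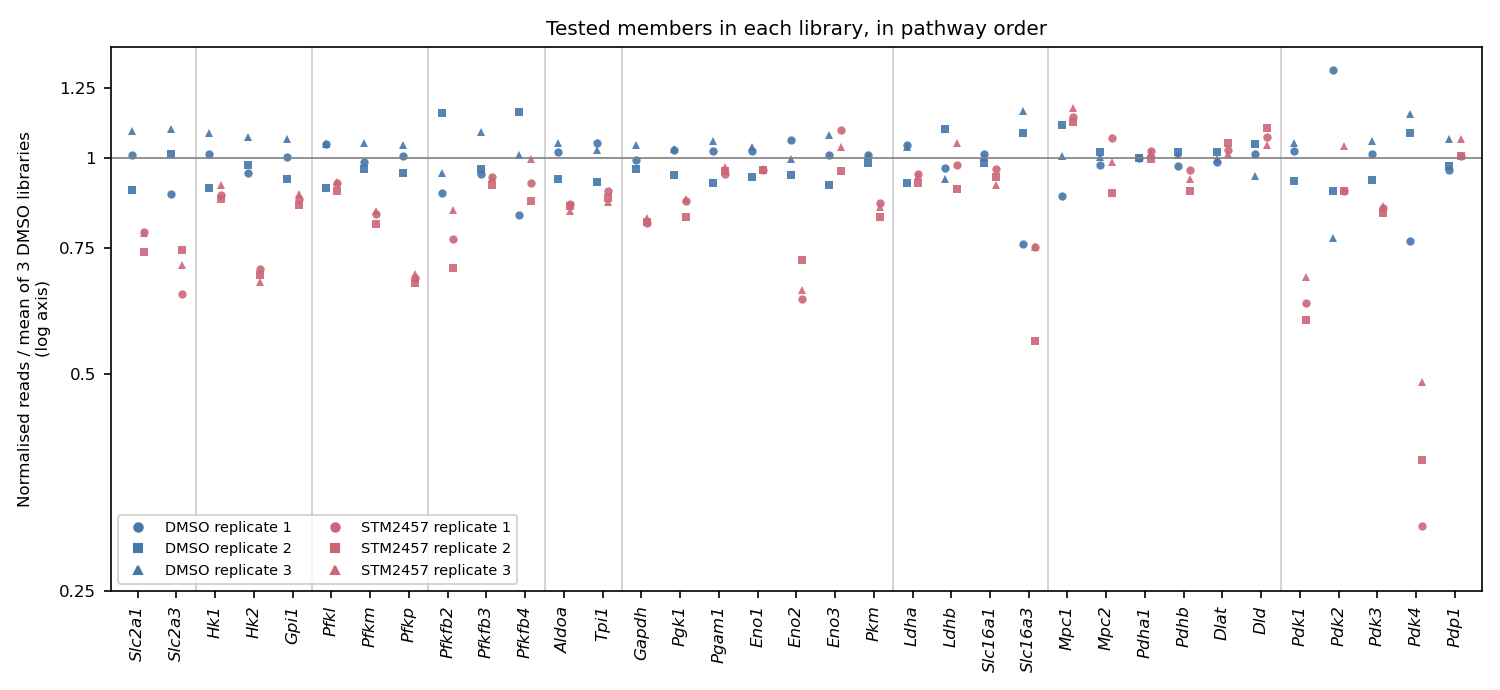
Normalised reads of each tested gene in each library, divided by the mean of the 3 DMSO libraries (log axis, marker shape for the replicate number, grey lines between steps). The DMSO squares (replicate 2) sit below 1 for most genes from Slc2a1 to Ldha, and the STM2457 points of Hk2, Pfkp, Eno2, Pdk1 and Pdk4 lie below every DMSO point.

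The 2 transporters for glucose both fell. Slc2a1 encodes GLUT1, the main glucose transporter of proliferating cells, and had 6024, 5388 and 6519 normalised reads in DMSO replicates 1 to 3 and 4720, 4421 and 4692 after STM2457. The 2 groups did not overlap, and the lowest DMSO library was replicate 2. The fold was 0.774 (95% interval 0.707 to 0.847, limma adjusted p = 1.5e-04). Slc2a3 encodes the high-affinity transporter GLUT3 and was a minor transcript here, at 82.1, 93.3 and 101 normalised reads in DMSO and 59.6, 68.6 and 65.4 after STM2457. Its groups did not overlap either, and its fold was 0.702 (0.571 to 0.863, limma adjusted p = 0.0019).

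The 3 genes that trap glucose and prepare it for the committed step fell, Hk2 with the lowest fold. Hexokinase phosphorylates glucose, and Hk2 (chr6:82725025-82774454, minus strand, GRCm38) is the isoform that tumours typically raise. Hk2 had 2848, 2923 and 3190 normalised reads in DMSO and 2090, 2052 and 2006 after STM2457, with no overlap, a fold of 0.687 (0.646 to 0.730) and a limma adjusted p of 1.7e-10. Hk1, the broadly expressed isoform, had 3939, 3535 and 4213 normalised reads in DMSO and 3460, 3415 and 3570 after STM2457. The groups of Hk1 overlapped through DMSO replicate 2, and its fold was 0.896 (0.833 to 0.964, limma adjusted p = 0.011). The Hk1 call was lost without DMSO replicate 1 (adjusted p = 0.053), DMSO replicate 3 (0.086) or STM2457 replicate 2 (0.054). Gpi1, which turns glucose 6-phosphate into fructose 6-phosphate, fell with a fold of 0.877 (0.830 to 0.928, limma adjusted p = 3.8e-04) and without overlap, from 26029, 24305 and 27597 to 22789, 22339 and 23162 normalised reads.

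The phosphofructokinase isoforms of the liver, muscle and platelet type all fell, with folds from 0.681 to 0.917. Phosphofructokinase catalyses the committed step of glycolysis. Pfkp (chr13:6579768-6648777, minus strand, GRCm38), the platelet isoform, had 10454, 9876 and 10811 normalised reads in DMSO and 7070, 6952 and 7163 after STM2457, with no overlap. Its fold was 0.681 (0.645 to 0.718, limma adjusted p = 1.6e-11). Pfkm fell without overlap to a fold of 0.830 (0.781 to 0.882, limma adjusted p = 9.8e-06). Pfkl overlapped between groups and had a fold of 0.917 (0.858 to 0.979, limma adjusted p = 0.025), and its call was lost without any single library other than DMSO replicate 2, at adjusted p-values of 0.10, 0.14, 0.058, 0.10 and 0.053 in the order DMSO replicates 1 and 3, then STM2457 replicates 1 to 3.

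The enzymes that make and break down fructose 2,6-bisphosphate, the strongest activator of phosphofructokinase, were of low abundance, and 1 of the 3 fell. Pfkfb2 fell from 92.1, 119 and 98.4 to 79.5, 72.5 and 87.2 normalised reads, with no overlap, a fold of 0.776 (0.636 to 0.945) and a limma adjusted p of 0.018. That call was lost without DMSO replicate 2 (adjusted p = 0.11) or STM2457 replicate 2 (0.092). Pfkfb3, the isoform with the highest kinase activity, had 417, 424 and 478 normalised reads in DMSO and 413, 403 and 412 after STM2457. Its fold of 0.934 (0.848 to 1.03) did not pass (limma adjusted p = 0.21). Pfkfb4 did not pass either, with a fold of 0.936 (0.765 to 1.14).

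Aldolase and triose phosphate isomerase split the sugar and keep the products in balance. Aldoa, the main aldolase of most tissues, had 31221, 28691 and 32133 normalised reads in DMSO and 26438, 26295 and 25863 after STM2457. The groups did not overlap, and the fold was 0.855 (0.810 to 0.902, limma adjusted p = 3.2e-05). Tpi1 fell likewise, with a fold of 0.883 (0.834 to 0.936, limma adjusted p = 8.4e-04) and no overlap. Aldoc, the brain isoform, was not tested: it had 2, 2 and 4 reads in DMSO and 0, 1 and 5 after STM2457.

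In the steps from glyceraldehyde 3-phosphate to pyruvate, Gapdh, Pgk1, Eno2 and Pkm fell, and Pgam1, Eno1 and Eno3 did not pass. Gapdh encodes the dehydrogenase that yields the first high-energy phosphate of the pathway, a transcript commonly used as a reference. It had 144682, 140232 and 151570 normalised reads in DMSO and 118255, 118663 and 120141 after STM2457. The groups did not overlap, and the fold was 0.818 (0.781 to 0.858, limma adjusted p = 3.0e-07). Pgk1, the kinase that makes ATP from that phosphate, had a fold of 0.858 (0.814 to 0.904, limma adjusted p = 3.1e-05). Pkm, which encodes pyruvate kinase, had 89206, 86948 and 89090 normalised reads in DMSO and 76602, 73237 and 75465 after STM2457. The groups of Pkm were apart and its fold was 0.849 (0.812 to 0.889, limma adjusted p = 3.5e-06). Its M1 and M2 splice forms cannot be separated in gene totals.

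The 3 enolase genes, which act just before pyruvate kinase, had folds from 0.671 to 1.03, and Eno2 alone passed. Eno2 (chr6:124760053-124769673, minus strand, GRCm38), the neuron-enriched isoform, had 609, 544 and 572 normalised reads in DMSO and 366, 415 and 377 after STM2457. No library of one group reached the other, and the fold was 0.671 (0.610 to 0.738, limma adjusted p = 7.3e-08). Eno1, the abundant ubiquitous isoform, had 71776, 65963 and 72701 normalised reads in DMSO and 67565, 67506 and 67776 after STM2457, which overlapped because DMSO replicate 2 was the lowest of all 6. Its fold was 0.965 (0.917 to 1.01, limma adjusted p = 0.25). Pgam1, the mutase before enolase, had a fold of 0.961 (0.907 to 1.02, limma adjusted p = 0.25), again with DMSO replicate 2 below every STM2457 library. Without that library both passed as lower (adjusted p = 0.015 for Eno1 and 0.0060 for Pgam1). Eno3, the muscle isoform, had a fold of 1.03 (0.931 to 1.14), with overlapping groups.

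Of the 4 genes of lactate production and export, 1 fell and 3 did not pass. Ldha encodes the lactate dehydrogenase subunit that favours lactate formation. Its normalised reads were 73657, 65235 and 73189 in DMSO and 67241, 65243 and 66812 after STM2457, and the groups overlapped at DMSO replicate 2. The fold of 0.941 (0.889 to 0.996) did not pass by limma (adjusted p = 0.075), and it passed without DMSO replicate 2 (adjusted p = 5.0e-04), with no filter on low values (0.013) and with upper-quartile centring (0.0017). Ldhb, the subunit that favours the reverse reaction, was far less abundant and had a fold of 0.977 (0.835 to 1.14). Slc16a1, the monocarboxylate transporter MCT1, had 3579, 3478 and 3542 normalised reads in DMSO and 3406, 3323 and 3238 after STM2457. It fell without overlap, by a fold of 0.940 (0.892 to 0.991, limma adjusted p = 0.046), a call lost in 5 of the 6 fits that left out 1 library, all but the one without DMSO replicate 2, at adjusted p-values from 0.051 to 0.17. Slc16a3, the export transporter MCT4, had 23.0, 32.8 and 35.2 normalised reads in DMSO and 22.8, 16.9 and 22.8 after STM2457, a fold of 0.697 (0.495 to 0.982) that did not pass (limma adjusted p = 0.052). It passed without DMSO replicate 1 (adjusted p = 0.013).

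The 6 genes of pyruvate import and oxidation had folds from 0.932 to 1.15, and 2 rose and 1 fell. Mpc1 and Mpc2 form the carrier that brings pyruvate into mitochondria. Mpc1 rose from 338, 424 and 384 to 435, 428 and 448 normalised reads, with no overlap, a fold of 1.15 (1.03 to 1.28) and a limma adjusted p of 0.024. Mpc2 had a fold of 0.979 (0.878 to 1.09). The dehydrogenase subunits Pdha1 and Dlat had folds of 1.01 and 1.03, and neither passed. Pdhb, the other subunit of the decarboxylase, fell by a fold of 0.932 (0.876 to 0.990, limma adjusted p = 0.046), from 1547, 1620 and 1602 to 1528, 1430 and 1486 normalised reads. Dld, the dihydrolipoamide dehydrogenase that pyruvate dehydrogenase shares with other complexes, rose by a fold of 1.07 (1.01 to 1.14, limma adjusted p = 0.045) with overlapping groups. These 3 calls depend on single libraries. Mpc1 was lost without DMSO replicate 1 (adjusted p = 0.18) or 3 (0.050) or STM2457 replicate 1 (0.058) or 3 (0.088). Pdhb was lost without DMSO replicate 2 (0.097) or 3 (0.11) or STM2457 replicate 2 (0.21) or 3 (0.087), and Dld without DMSO replicate 3 (0.28) or STM2457 replicate 1 (0.10) or 2 (0.20).

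The kinases that switch pyruvate dehydrogenase off had the 2 lowest folds of the 35 tested genes. Pdk1 (chr2:71873224-71903858, plus strand, GRCm38) had 3921, 3557 and 4013 normalised reads in DMSO and 2409, 2277 and 2615 after STM2457, with no overlap. Its fold was 0.635 (0.589 to 0.685, limma adjusted p = 4.5e-09). Pdk4 (chr6:5483351-5496309, minus strand, GRCm38), the isoform raised by fasting and fatty acid use in many tissues, was rare, at 42.1, 59.6 and 63.3 normalised reads in DMSO and 16.9, 20.9 and 26.8 after STM2457. The groups were apart, and its fold of 0.396 (0.286 to 0.548, limma adjusted p = 8.4e-06) was the lowest of all 35. Pdk3 fell from 1394, 1282 and 1455 to 1172, 1153 and 1182 normalised reads, a fold of 0.850 (0.794 to 0.910, limma adjusted p = 2.0e-04). Pdk2 had 11.1 to 19.0 normalised reads in DMSO and its fold of 0.970 (0.644 to 1.46) did not pass. Pdp1, the phosphatase that reverses the kinases' action, had a fold of 1.02 (0.936 to 1.12) that did not pass.

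**Figure D3:**
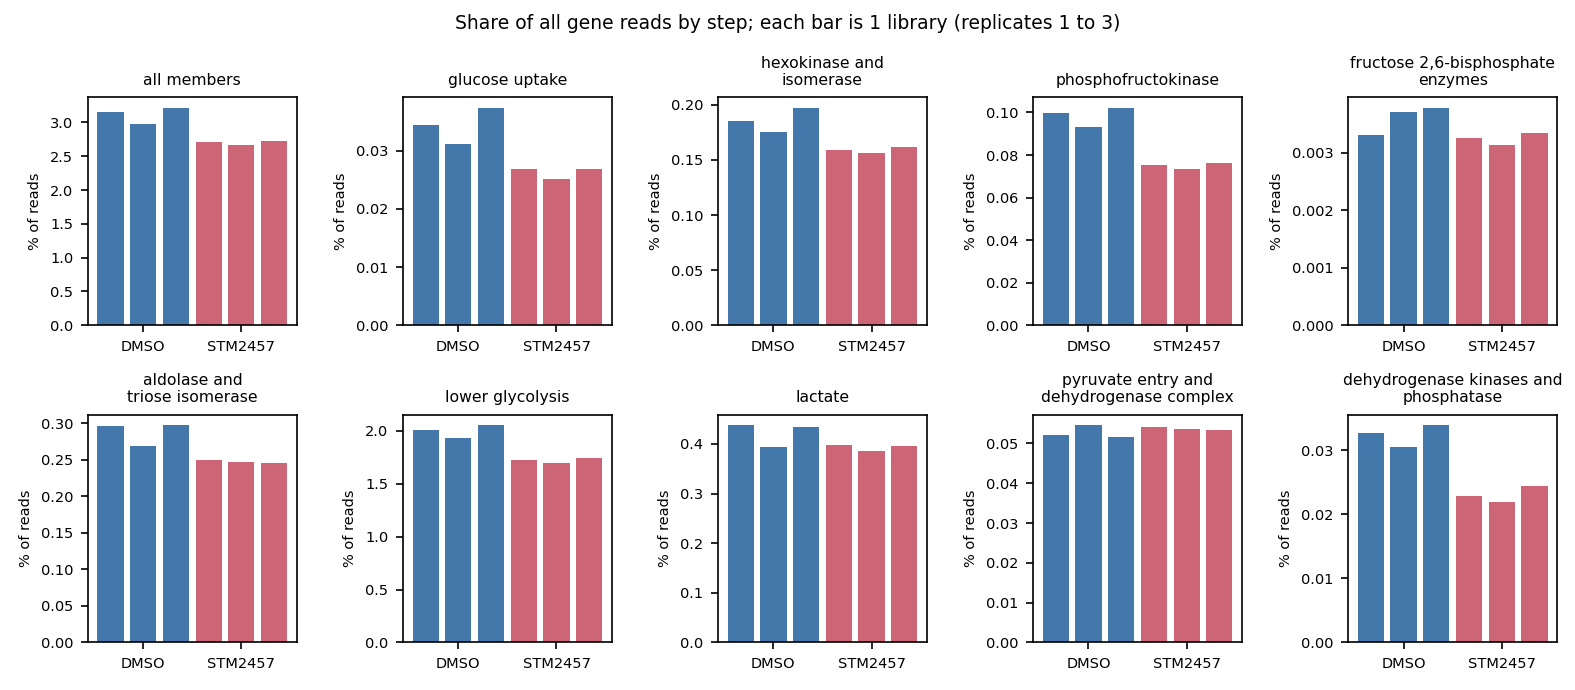
Share of all gene reads taken by each step, in percent, with 1 bar per library (DMSO in blue, STM2457 in red; each panel starts at 0). In the kinase panel the STM2457 libraries lie at 0.0220 to 0.0244% and the DMSO libraries at 0.0305 to 0.0339%, while the panel for pyruvate entry and the dehydrogenase complex overlaps.

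Summed by step, all gene reads give the weight of each change. The 36 genes took 3.11% ± 0.116 (SD, n = 3) of the reads in DMSO and 2.70% ± 0.0327 after STM2457, a ratio of 0.867. Without Gapdh the shares were 2.29% ± 0.0927 and 2.03% ± 0.0290. The ratio was 0.712 for the kinases and phosphatase, 0.761 for phosphofructokinase, 0.766 for uptake, 0.856 for hexokinase and isomerase, 0.860 for aldolase and triose isomerase and 0.860 for lower glycolysis, with no overlap between groups in these 6 steps. The libraries overlapped for 3 steps: the fructose 2,6-bisphosphate enzymes with a ratio of 0.900, lactate with 0.935, and pyruvate entry with the dehydrogenase complex with 1.02. For lactate the overlap came from DMSO replicate 2, at 0.393% beside 0.386 to 0.398% after STM2457.

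The genes span a wide range of levels. Per length, as RPKM (RPM per kilobase of the median coding transcript), Gapdh led at 6468 ± 217 (SD, n = 3) in DMSO, followed by Ldha at 2519 ± 155, Pkm at 2238 ± 19.7, Eno1 at 2021 ± 93.3 and Aldoa at 1169 ± 60.9. Pgk1 at 970 ± 38.2 and Tpi1 at 946 ± 58.1 lay within their spread of each other, as did Pgam1 at 535 ± 33.8 and Gpi1 at 510 ± 29.3. The order depends on the length used: per length of merged exons, Pgk1 (789) stood above Eno1 (738), and Pfkp and Pfkl were nearly equal in DMSO (43.8 and 43.2) where the coding transcript gave 172 and 77.3. Hk2 (40.7 ± 2.31), Pdk1 (41.8 ± 2.38) and Pdha1 (38.5 ± 0.193) were nearly equal in DMSO per length, and their folds were 0.687, 0.635 and 1.01. Across the 35 tested genes, level per length and log2 fold had a Spearman rho of -0.03, a description over genes that share the same 6 libraries.

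**Figure D4:**
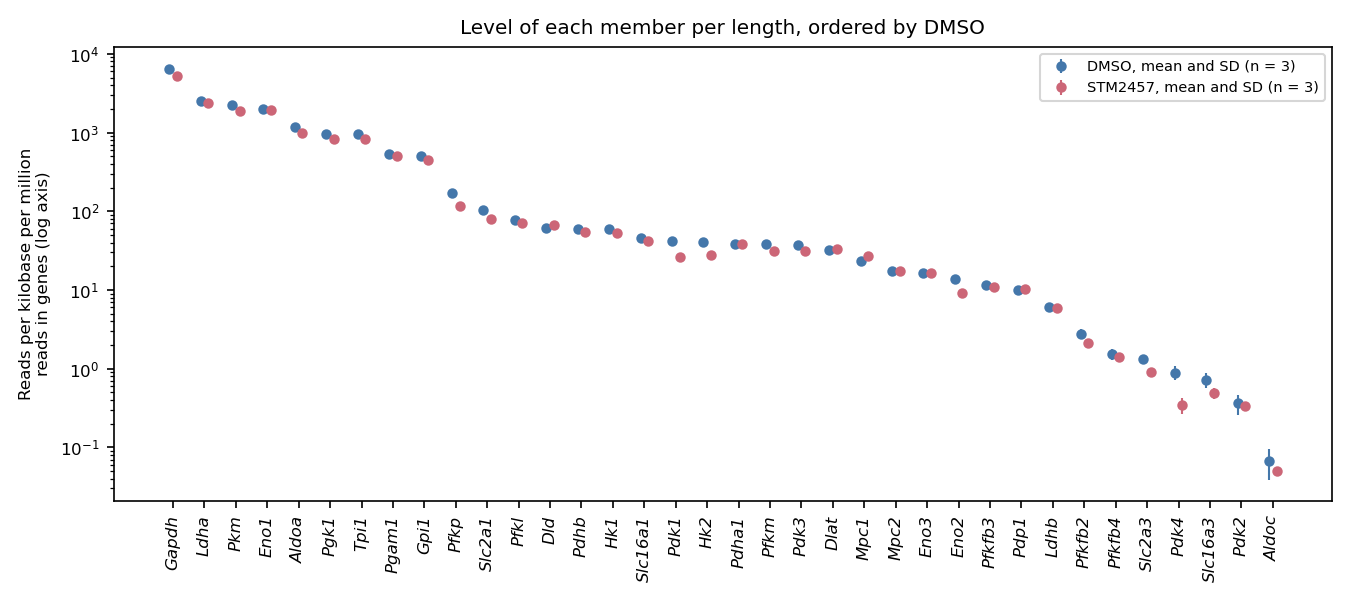
RPKM for each of the 36 genes (log axis; mean and SD over 3 libraries, DMSO in blue and STM2457 in red), ordered by the DMSO level from Gapdh (6468) to Aldoc (0.0673). Among the tested genes Pdk4, Pdk1 and Eno2 show the widest gaps between groups, and Aldoc after STM2457 is drawn without an SD because its SD exceeds its mean.

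Ratios between genes of the same step ask whether they changed unequally within a library. Of 11 pairs, 5 did not overlap between groups, each at an exact two-sided permutation p of 0.10, the smallest that 3 against 3 allows, and a Benjamini-Hochberg adjusted p of 0.22, so none passed. The log2 ratio of Hk2 to Hk1 was -0.47, -0.27 and -0.40 in DMSO and -0.73, -0.73 and -0.83 after STM2457, a difference of -0.38. The log2 ratio of Pfkp to Pfkl was 0.59 to 0.60 after STM2457 and 0.97 to 1.09 in DMSO, a difference of -0.43. The log2 ratio of Eno1 to Eno2 was 6.88, 6.92 and 6.99 in DMSO and 7.53, 7.34 and 7.49 after STM2457, a difference of 0.52. For the dehydrogenase, the log2 ratio of Pdk1 to Pdk3 differed by -0.42 and that of Pdk1 to the opposing phosphatase Pdp1 by -0.69, from 3.07 ± 0.08 to 2.38 ± 0.06 (SD, n = 3). The ratios for Slc2a1 to Slc2a3, Pfkfb3 to Pfkfb4, Ldha to Ldhb, Slc16a3 to Slc16a1 and Mpc1 to Mpc2 overlapped, with log2 differences of 0.14, -0.00, -0.05, -0.43 and 0.23. Without DMSO replicate 2, 8 pairs did not overlap. The ratio of Aldoa to Aldoc rests on 0 to 5 reads of Aldoc and is not interpreted.

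**Figure D5:**
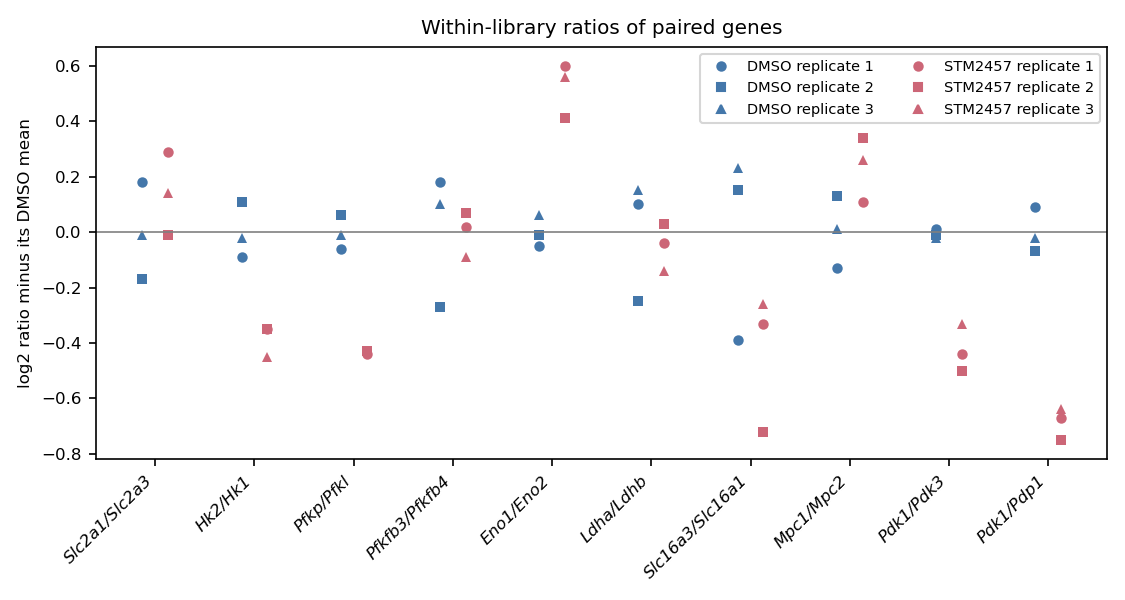
Within-library log2 ratio of each gene pair minus its mean in DMSO (marker shape for the replicate number, DMSO in blue and STM2457 in red; Aldoa to Aldoc not drawn). Hk2 to Hk1, Pfkp to Pfkl, Pdk1 to Pdk3 and Pdk1 to Pdp1 lie below every DMSO library and Eno1 to Eno2 above.

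Promoter sequence was examined because many of these genes moved together. The RefSeq promoter table (GRCm38.p6) matched 34 of the 36 genes, with 51 windows of 250 bases before a transcription start. Slc2a3 and Pdp1 were not matched. For 42 of the 51 windows, bases just after the start lay in a GENCODE transcript of the same gene. The remaining windows were kept in all counts below. Both strands were searched for ACGTG and GCGTG, the core letters of the hypoxia-inducible factor element, and for CACGTG, the E-box that MYC binds and that contains ACGTG. At least 1 window held ACGTG or GCGTG in 29 of 34 genes (85.3%), beside 62.9% of the 9384 tested genes with a window and 41.5% of all genes in the table. ACGTG was present in 15 of the 34 (44.1%, beside 25.8% of tested genes), GCGTG in 23 (67.6%, beside 51.5%) and CACGTG in 6 (17.6%, beside 10.0%). Of the matched genes that fell, 16 of 19 (84.2%) held ACGTG or GCGTG, and of those that did not fall or were not tested, 13 of 15 (86.7%). The median window of these genes held 14.0 CpG, beside 16.0 in tested genes, and they had more windows per gene (51 for 34 genes, beside 11995 for 9384). Counted per window, ACGTG or GCGTG was in 76.5% of these windows, beside 56.8% in tested genes, and ACGTG in 37.3%, beside 22.1%. A match is a description of letters and says nothing of binding.

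The promoters below are those of the 3 genes that fell most among genes with a mean of at least 1000 reads, and of Mpc1, the called gene that rose most. Where RefSeq gives several starts, the most upstream one is shown. Pdk1 and Mpc1 each have another window, which holds 0 matches. Each window ends at the base before the RefSeq start on the gene's own strand and is written 5′ to 3′, with ACGTG or GCGTG (or their reverse complements CACGT and CACGC) in capitals. Pdk1 (chr2:71872974-71873223, plus strand) holds 1 match, 78 bases before the start. Pfkp (chr13:6648772-6649021, minus strand) holds 3, at 136, 68 and 23 bases. Hk2 (chr6:82774455-82774704, minus strand) holds 2, at 226 and 52 bases, and Mpc1 (chr17:8283537-8283786, plus strand) holds 1, at 242 bases. By their GENCODE M21 extents, the Pdk1 and Hk2 genes begin at the base after their windows. The last bases of the Pfkp window lie inside the Pfkp gene. The Mpc1 window lies inside the GENCODE gene, whose longest extent starts upstream at base 8282904.
Pdk1: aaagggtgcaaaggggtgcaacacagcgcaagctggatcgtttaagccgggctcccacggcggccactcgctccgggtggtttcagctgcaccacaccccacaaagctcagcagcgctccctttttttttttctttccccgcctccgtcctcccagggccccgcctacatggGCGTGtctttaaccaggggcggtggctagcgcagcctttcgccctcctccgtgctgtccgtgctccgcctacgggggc
Pfkp: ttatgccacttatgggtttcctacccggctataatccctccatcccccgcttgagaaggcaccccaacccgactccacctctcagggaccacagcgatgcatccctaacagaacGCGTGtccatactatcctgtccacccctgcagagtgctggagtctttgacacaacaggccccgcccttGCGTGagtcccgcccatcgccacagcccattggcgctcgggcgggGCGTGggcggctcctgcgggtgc
Hk2: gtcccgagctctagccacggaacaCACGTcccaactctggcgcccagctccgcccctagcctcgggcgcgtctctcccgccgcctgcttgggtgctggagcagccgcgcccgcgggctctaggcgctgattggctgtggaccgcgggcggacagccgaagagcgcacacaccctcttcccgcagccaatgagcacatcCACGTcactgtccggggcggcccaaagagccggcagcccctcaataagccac
Mpc1: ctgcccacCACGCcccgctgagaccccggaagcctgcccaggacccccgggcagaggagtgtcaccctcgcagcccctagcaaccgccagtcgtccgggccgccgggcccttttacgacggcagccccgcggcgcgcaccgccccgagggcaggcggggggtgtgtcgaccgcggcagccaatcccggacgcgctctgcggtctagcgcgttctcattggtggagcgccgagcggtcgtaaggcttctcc

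Other genes on or beside these routes moved in both directions. A wider list of 33 genes around glycolysis and gluconeogenesis also held regulators and enzymes of side reactions. Of the 17 tested, 3 fell and 7 rose. That made 58.8% called, near the 56.3% of all tested genes. Upper-quartile centring gave 5 lower and 6 higher. In the main fit the 3 that fell were Slc2a8, Pck2 and Pgm1. The 7 that rose were Bpgm, Tigar, Gpd1l, Minpp1, Gpd2, Pgam5 and Pgam2. Of these 7, only Pgam2 encodes a main enzyme of a glycolytic step. Bpgm, which makes the red-cell regulator 2,3-bisphosphoglycerate, rose by a fold of 1.53 (1.39 to 1.69), from 303, 306 and 296 to 463, 458 and 469 normalised reads (limma adjusted p = 2.0e-08). Tigar, a phosphatase that lowers fructose 2,6-bisphosphate, rose by a fold of 1.41 (1.28 to 1.54, limma adjusted p = 4.4e-07), and Gpd1l, Minpp1 and Gpd2 by folds of 1.33, 1.25 and 1.21. Slc2a8, which encodes an intracellular glucose transporter, fell by a fold of 0.549 (0.474 to 0.635, limma adjusted p = 1.0e-07). Of 9 tested further genes of lactate transport and pyruvate dehydrogenase, 2 fell and 3 rose, and the 55.6% called was again near that background. Bsg, the chaperone that brings MCT1 and MCT4 to the membrane, had 16290, 15457 and 17216 normalised reads in DMSO and 12879, 12901 and 13299 after STM2457, a fold of 0.799 (0.757 to 0.843, limma adjusted p = 1.8e-07). Slc16a4, an orphan monocarboxylate transporter, fell by a fold of 0.509 (0.395 to 0.656, limma adjusted p = 1.2e-05). Pdp2, the second phosphatase of pyruvate dehydrogenase, rose by a fold of 1.50 (1.34 to 1.67, limma adjusted p = 4.6e-07) and Emb, a chaperone related to Bsg, by 1.19. Lipt1, which attaches lipoate to dehydrogenase complexes, rose by a fold of 1.23 (limma adjusted p = 0.012), a call lost without DMSO replicate 1 (adjusted p = 0.067) or STM2457 replicate 1 (0.072).

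The list of 20 citric acid cycle genes included Aco1, Idh1 and Mdh1, which encode cytosolic forms of the enzymes. Of the 20, 5 fell, 5 rose and 10 did not pass, where 56.3% of all tested genes were called. Aco1 was among those that rose and Mdh1 among those that fell. With upper-quartile centring 11 of the 20 fell and 3 rose. Ogdh, the first subunit of the 2-oxoglutarate dehydrogenase that parallels pyruvate dehydrogenase, rose by a fold of 1.40 (1.33 to 1.49), from 4302, 3858 and 4210 to 5655, 5863 and 5833 normalised reads (limma adjusted p = 3.1e-10). Its partner subunit Dlst rose by a fold of 1.15 and Idh3a by 1.12, and Idh2, Idh3g and Suclg1 fell by folds of 0.895, 0.879 and 0.878. The genes of the hypoxia-inducible factor system and Myc gave 6 falls and 2 rises among 8 tested, beside 25.7% lower and 30.7% higher among all tested genes, and 1 rise with upper-quartile centring or without DMSO replicate 3. Hif1a, the oxygen-regulated subunit, had 5507, 5778 and 5718 normalised reads in DMSO and 4583, 4461 and 4466 after STM2457, a fold of 0.795 (0.755 to 0.837, limma adjusted p = 3.9e-08). Its partner Arnt fell by a fold of 0.860, Vhl, which targets it for destruction, by 0.776, and the prolyl hydroxylase Egln3, itself a target of the factor, by 0.632. Egln2 rose by a fold of 1.36 (limma adjusted p = 1.2e-07). Myc had 11133, 14337 and 13291 normalised reads in DMSO and 8688, 8614 and 8672 after STM2457, a fold of 0.674 (0.569 to 0.798, limma adjusted p = 0.0032).

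Some of these values carry limits of counting. Of the 36 genes, 11 overlap a gene on the other strand: Slc2a1, Hk1, Gpi1, Pfkm, Pfkp, Pfkfb2, Aldoa, Tpi1, Gapdh, Mpc1 and Pdha1. A gene on the same strand overlaps 3: Pfkm, Pfkfb2 and Pkm. The use of strand in the counting is not known here. A near-identical copy with reads exists for 9 genes, Gapdh, Eno1, Pgk1, Pgam1, Pkm, Ldha, Tpi1, Pdhb and Mpc1, where reads could be split or shared. The copies' share was highest for Mpc1, at 3.69% of its reads. Its pseudogene Mpc1-ps had 6, 18 and 11 reads in DMSO and 19, 19 and 18 after STM2457, and is named after its values were seen.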

How the data were processed

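RNA was sequenced from LLC cells treated with DMSO or STM2457, 3 samples each, grouped by the treatment in their labels. Per the submitters' processing notes, FastQC 0.11.9, HISAT2 2.2.1, featureCounts 2.0.1 and DESeq2 were used with GRCm38; no source used here gives the annotation or the strand setting. The authors deposited log2 values, 1 column per library, and the transform is not stated. Their form is that of a regularised log2 transform, which shrinks low genes most and keeps 59.9% of a small log2 difference at high counts. The equations were inverted to recover reads (size factors 0.995 to 1.01): under a mean of 500 reads 98.8% of values of 17555 genes came out whole within 0.05 reads, and above it 84.3% of values of 6583 genes, with only 18.1% from a mean of 40000 reads, so whole numbers do not test the reads of the most abundant genes.

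Genes with a mean of at least 10 reads were tested with limma 3.58.1 (R 4.3.3, statmod 1.5.0; trend and robust priors) on the deposited log2 values, with Benjamini-Hochberg adjustment over 12618 genes and a threshold of 0.05. The design listed a count test for the case of counts, and limma was used because the table holds log2 values. Folds came from limma-voom on recovered reads. Ratios of gene pairs added 0.5 reads to each count and used exact permutation tests with adjustment over 11 pairs. Near-identical copies were found with blastn 2.17.0 (at least 95% identity over 200 bases). The method was tested on data simulated with the same form of transform and with a small share of genes changed. Such data cannot test whether the deposited values came from that transform, or how the calls behave when most genes change. Alternatives were upper-quartile centring, other filters, other priors, limma-voom, a replicate block and leaving out each library. All 36 genes are named. From the other lists up to 6 genes of smallest adjusted p are given with values, plus Hif1a, Myc and Bsg. Pck2, Pgm1, Pgam5, Pgam2, Aco1, Idh1 and Mdh1 are named only to describe their lists. The genes and lists were chosen with earlier results of these data known.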

Additional observations from a re-analysis of the deposited data

How the results depend on the processing

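Of the 20 genes that fell, 15 kept their call under every alternative that tested them (12 in all, of which Slc2a3 and Pdk4 were tested in 11), and the other 5 (Hk1, Pfkl, Pfkfb2, Slc16a1 and Pdhb) lost it in at least 1; both genes that rose lost their call in at least 1. A mean of at least 100 reads leaves 6 of the 35 genes untested. The number that fell was 25 with upper-quartile centring and 15 to 21 when 1 library was left out. The number that rose was 0 with upper-quartile centring, 1 with no filter on low values, 1 with no trend or robust priors, and 0 to 2 when 1 library was left out. The median log2 difference was -0.07, -0.11 with upper-quartile centring and -0.16 with limma-voom on recovered reads, whose values are not shrunken. Upper-quartile centring moved the median log2 difference of all tested genes from 0.004 to -0.034. It gave 5 lower genes in the wider glycolysis and gluconeogenesis list. In the citric acid cycle list, with its cytosolic forms, it gave 11 lower and 3 higher. Among the hypoxia-inducible factor genes it gave 1 higher (also 1 without DMSO replicate 3). It also brought Pgam1, Eno1, Ldha, Pfkfb3 and Slc16a3 past the threshold, which Ldha also passed with no filter on low values. A mean of at least 100 reads left 1 lower gene of lactate transport and pyruvate dehydrogenase. Pairs whose groups did not overlap numbered 5 to 8 when 1 library was left out, 8 without DMSO replicate 2.

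With the replicate number as a block, 18 genes fell and 2 rose, and Slc16a1 (adjusted p = 0.056) and Pdhb (0.059) lost their calls. Over all tested genes, the deviations of each library from its group mean were compared between same-numbered libraries. These deviations correlated at 0.0501, 0.011 and 0.0399, all under 0.1. Those of DMSO replicate 2 correlated best with another number, so the numbers are not taken as pairs.

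Directions that turned were all of values that had not passed. On the log2 scale, Eno3 was -0.02, Pdha1 -0.03, Dlat -0.01 and Pdp1 -0.02 with upper-quartile centring. When 1 library was left out, the ranges that crossed 0 were -0.01 to 0.05 for Eno3 (-0.01 without DMSO replicate 2, -0.0016 without STM2457 replicate 1), -0.06 to 0.0038 for Pfkfb4 (0.0038 without DMSO replicate 2), -0.03 to 0.01 for Ldhb (0.01 without DMSO replicate 2 or STM2457 replicate 2), -0.04 to 0.02 for Mpc2 (0.02 without STM2457 replicate 2) and -0.02 to 0.01 for Pdk2 (0.01 without DMSO replicate 1). For log2 ratios they were -0.14 to 0.08 for Pfkfb3/Pfkfb4 (0.08 without DMSO replicate 1, 0.04 without DMSO replicate 3 or STM2457 replicate 3), -0.18 to 0.02 for Ldha/Ldhb (0.02 without DMSO replicate 3) and -0.14 to 1.60 for Aldoa/Aldoc (-0.14 without STM2457 replicate 1). On deposited values the differences for Slc2a1/Slc2a3 and Aldoa/Aldoc were -0.09 and -0.13. The cause was not tested. Depth limits Aldoc, Pdk2, Slc16a3 and Pdk4 most, as the tested genes with the fewest reads or, for Aldoc, too few to test.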

Other observations

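Besides the Mpc1 copy, near-identical copies of the abundant enzymes held reads. For Gapdh, 67 of 78 copies had reads, with a mean of 4473 reads in all over the 6 libraries, or 3.37% of the Gapdh reads. The largest, the processed pseudogene Gm5559, had 2210, 2255 and 2312 reads in DMSO and 1797, 1888 and 1953 after STM2457. For Eno1 the copies came to 0.872% of its reads. One of them, the protein-coding Eno1b, had 317, 256 and 284 reads in DMSO and 188, 169 and 159 after STM2457, without overlap, while Eno1 itself overlapped between groups. The pseudogene copy Gm4735 of Eno1 had 385, 358 and 362 reads in DMSO and 380, 348 and 307 after STM2457. Gm5559, Eno1b and Gm4735 were chosen after their values were seen, and reads that fit both a gene and its copy cannot be told apart in these totals.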
